A study of Mus musculus with 24 samples.

Results

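The response of normal mouse liver 12 h after an acetaminophen overdose was described across genes, from 3 WT livers at 12 h against 3 WT livers at 0 h. These 6 libraries were chosen by their labels, out of 24 libraries in 8 groups. The study gave 500 mg/kg acetaminophen to WT mice and to mice whose hepatocytes lack EGFR, and each library holds the liver RNA of 1 mouse. The mice of both groups are labelled WT with no further allele named, and each group has 3 mice. WT livers at 3 h and knockout livers at 0 h and 12 h, again 3 each, entered 2 further comparisons. Whether the 0 h mice received the drug or its vehicle is not stated. Strain, age, sex, feeding state, time of day and the Cre driver were not given in the sources used here. No untreated mice were taken at 12 h, so drug, time of day and handling cannot be told apart in any difference between 12 h and 0 h.

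Acetaminophen is oxidised by cytochrome P450 enzymes, above all CYP2E1, to a reactive quinone imine that uses up glutathione and then binds proteins, including those of mitochondria. These enzymes sit in pericentral hepatocytes, the cells around the central vein, which is why an overdose kills liver from the centre of the lobule outward. Surviving hepatocytes are known to raise stress kinase signalling, antioxidant and growth arrest genes before they divide, while Kupffer cells, neutrophils and monocytes respond to the dead tissue.

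Reads counted on genes ran from 4.60 to 7.58 M per library at 0 h and from 3.78 to 4.74 M at 12 h, of which mitochondrial ribosomal RNA took 41.2% to 43.1% and 48.4% to 49.2%. Of 50657 gene symbols, 13204 passed the filter on low counts and were tested with edgeR's quasi-likelihood test, in a fit to all 24 libraries. A gene is called higher or lower at a Benjamini-Hochberg adjusted p under 0.05 over all tested genes. Values per library are CPM, the counts per M counted reads, on library sizes scaled by TMM. Fold changes are on the log2 scale with their standard errors (SE). By this rule 3381 genes, or 25.6% of those tested, differed between 12 h and 0 h: 1772 were higher (13.4%) and 1609 lower (12.2%). The median log2 fold change over all tested genes was -0.01, with quartiles at -0.38 and 0.36. TMM sets directions relative to the middle of the genes. Scaled by library size alone, the middle of all genes lay at -0.37, and 40.3% of tested genes were called, 7.11% higher and 33.2% lower. The higher share of the called genes was then 17.6%, against 52.4% with TMM. Each group's higher and lower counts and its median are therefore also given under library-size scaling, to be read against these 7.11% and 33.2%. The counts with TMM are to be read against 13.4% higher and 12.2% lower. A gene named with a signed value and its SE is given by its log2 fold change. Library WT 0 h replicate 2 stood furthest from the others of its group, at 16.8 and 18.1 times the counting variance against 4.99 between the others. P-values rest on the spread between mice of the same group, estimated over all 24 libraries and not in the compared groups alone. The 3 libraries of a group did not overlap with the 3 of the other group in 39.9% of tested genes. Genes picked by fold change or CPM difference had to show no overlap, so their non-overlap is no result about them. Where leaving out 1 library moved a count by over 1.5 times, its counts are given in the order WT 0 h replicates 1, 2 and 3 and then WT 12 h replicates 1, 2 and 3.

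The higher genes reached larger folds than the lower ones. At least 8-fold differences numbered 187 among the higher and 32 among the lower genes, and at least 2-fold differences 989 and 682. Chka, which encodes choline kinase alpha, the first enzyme of phosphatidylcholine synthesis, was counted at 40.1, 55.9 and 34.4 CPM in the 0 h livers and 2019, 1233 and 2326 CPM in the 12 h livers. Every 12 h liver lay far above every 0 h liver, a 43.05-fold difference (log2 fold change 5.43, SE 0.27, adjusted p = 7.9e-13). Hilpda, a lipid droplet protein that inhibits triglyceride breakdown, stood at 0.258, 0.420 and 0.666 CPM in the 0 h livers and 42.4, 25.3 and 65.4 CPM in the 12 h livers. All 12 h livers lay above all 0 h livers (log2 fold change 6.56, SE 0.41, adjusted p = 1.0e-11). Several genes were almost silent at 0 h. Garin1a had 1 count over the 3 livers at 0 h and 343 at 12 h, a ratio of CPM of 647 (95% exact interval 115 to 25625). Ccdc180 had 1 and 224, a ratio of 422 (95% exact interval 75.1 to 16760.2). Lsmem1 went from 1 count to 150, a ratio of 283 (95% exact interval 50.01 to 11248), and the keratin gene Krt78 from 2 to 207, a ratio of 195 (95% exact interval 53.4 to 1623). All these intervals cover counting error only. The 4 genes were picked by the size of this same change, and the filter admits genes counted at 12 h alone. Among the lower genes, besides Slc1a2 described below, were the methyltransferase gene Setdb2 at -3.46 (SE 0.61), the interferon-inducible GTPase gene Gvin3 at -2.75 (SE 0.63), Map2k6 at -2.57 (SE 0.28) and Clec2d at -2.35 (SE 0.20). The nuclear RNA Neat1, the scaffold of paraspeckles, rose from 786 ± 324 to 3243 ± 181 CPM (SD, n = 3) and its neighbour Malat1 from 9741 ± 673 to 14553 ± 398 CPM. Malat1 had an adjusted p of 0.252 under library-size scaling.

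**Figure D1:**
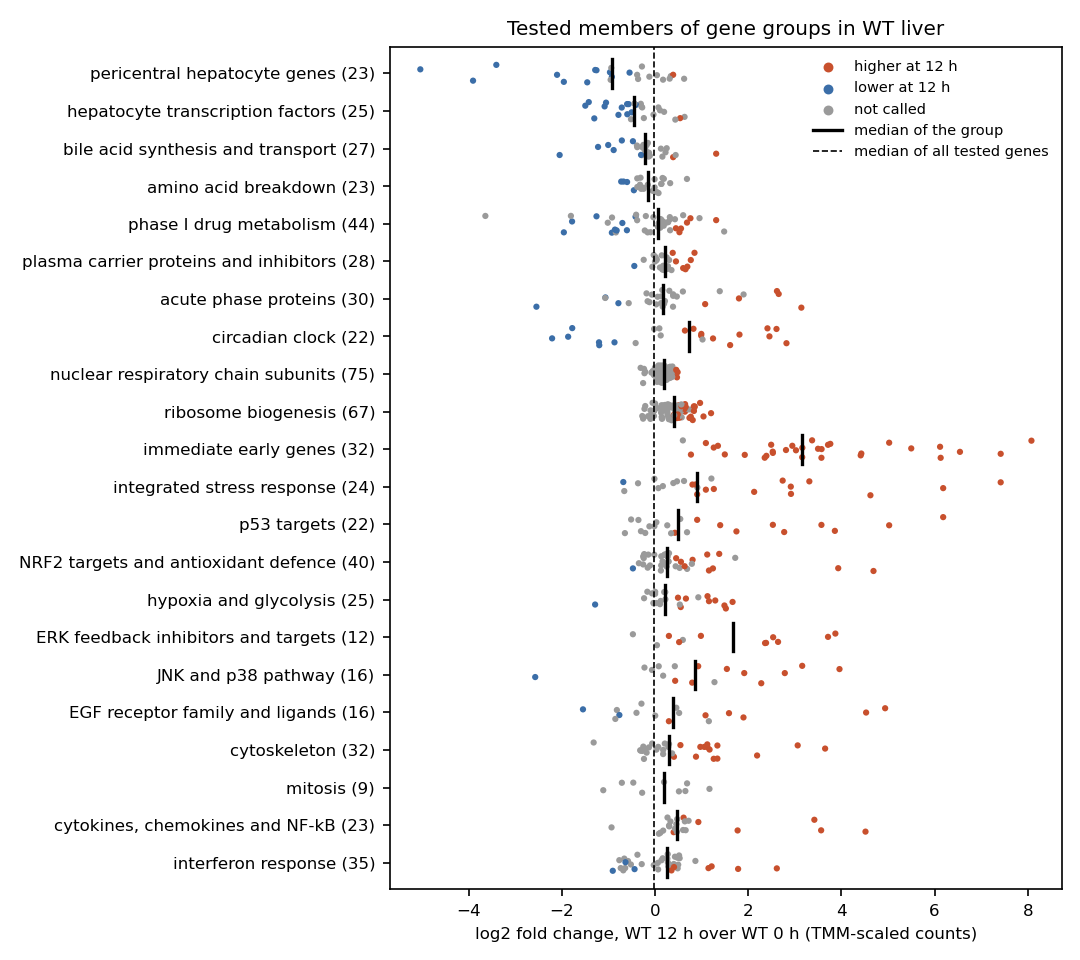
Log2 fold change of WT 12 h over WT 0 h on the horizontal axis for each tested member of the gene groups on the vertical axis (number tested in parentheses). Points are coloured by the call, thick bars are group medians and the dashed line is the median of all tested genes at -0.01. Immediate early genes lie furthest right (median 3.16) and pericentral genes furthest left (median -0.92).

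Many genes of pericentral hepatocytes fell at 12 h. Of 23 tested, 1 was higher and 11 lower, with a median log2 fold change of -0.92 beside -0.01 over all genes, and a lower share well above the 12.2% of all genes (under library-size scaling 0 and 15, median -1.29). The counts without 1 library at a time were 1, 0, 0, 0, 0 and 1 higher. Slc1a2, a glutamate transporter of the innermost ring of hepatocytes, was counted at 217, 275 and 234 CPM in the 0 h livers and 12.3, 7.78 and 2.59 CPM in the 12 h livers. All 12 h livers lay far below the lowest 0 h liver (log2 fold change -5.03, SE 0.49, adjusted p = 8.4e-07). Glul, the glutamine synthetase of the same ring, stood at 278, 252 and 261 CPM in the 0 h livers and 68.01, 65.03 and 51.9 CPM in the 12 h livers. Each 12 h liver was below the 0 h range (log2 fold change -2.10, SE 0.26, adjusted p = 3.9e-06). Oat, ornithine aminotransferase, stood at 269, 246 and 297 CPM in the 0 h livers and 109, 101 and 86.1 CPM in the 12 h livers. No liver of one group reached the other (log2 fold change -1.45, SE 0.21, adjusted p = 1.9e-05). The drug-activating Cyp2e1 was at 3615, 3233 and 4304 CPM in the 0 h livers and 2049, 1877 and 1950.3 CPM in the 12 h livers. The 3 livers at 12 h were all below those at 0 h (log2 fold change -0.92, SE 0.20, adjusted p = 0.00118). Cyp2a5 was lower at -1.95 (SE 0.39), Cyp2c37 at -1.25 (SE 0.23) and the phosphatase gene Lhpp at -1.28 (SE 0.30). Of the 11 members whose test did not pass, the most counted, Pon1, an esterase secreted on lipoproteins, stood at 293, 384 and 305 CPM in the 0 h livers and 305, 309 and 289 CPM in the 12 h livers (adjusted p = 0.573). In bulk liver, fewer cells of a type and less RNA per cell cannot be told apart, here and for every cell type below. Pon1 was called lower under library-size scaling (adjusted p = 0.00650).

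Of periportal genes, active at the outer rim of the lobule, 3 were higher and 3 lower of 19 tested, with a median log2 fold change of 0.27 (under library-size scaling 0 and 6, median -0.08). With each library left out in turn, 3, 1, 1, 2, 2 and 1 higher and 1, 2, 2, 1, 2 and 2 lower were called. Pck1, the rate-limiting enzyme of gluconeogenesis, stood at 2118, 2186 and 1893 CPM in the 0 h livers and 1306, 1367 and 1288 CPM in the 12 h livers. Both groups stayed apart (log2 fold change -0.65, SE 0.17, adjusted p = 0.00485). Gldc, of the glycine cleavage system, was higher at 0.59 (SE 0.16). Cps1, the entry enzyme of the urea cycle, stood at 4418, 4281 and 4635 CPM in the 0 h livers and 3501, 4013 and 3466 CPM in the 12 h livers, and its test did not pass (adjusted p = 0.218). Of enzymes of amino acid breakdown, 0 were higher and 4 lower of 23 tested (median -0.15; under library-size scaling 0 and 12, median -0.51), the lower ones including Kmo of tryptophan breakdown at -0.72 (SE 0.13), Hgd of tyrosine breakdown at -0.60 (SE 0.13) and Haao of tryptophan breakdown at -0.45 (SE 0.15). The call of Haao was lost without WT 0 h replicate 1 or 2 or WT 12 h replicate 1 (adjusted p = 0.0776, 0.0926 and 0.184). In the methionine and transsulfuration group 4 rose and none fell of 17 tested, a called share close to the 25.6% of all genes. The median was 0.03 (under library-size scaling 4 and 7, median -0.33). Bhmt, which remakes methionine from betaine, was at 1734, 1525 and 1771 CPM in the 0 h livers and 3582, 4208 and 3639 CPM in the 12 h livers. This was a 2.27-fold rise without overlap (log2 fold change 1.18, SE 0.18, adjusted p = 5.9e-06). Mat2a, the methionine adenosyltransferase of growing cells, rose by 1.05 (SE 0.14) and Gclc, the rate-limiting subunit of glutathione synthesis, by 1.38 (SE 0.19). Under library-size scaling the adjusted p was 0.257 for Gldc. Cps1 was called lower under library-size scaling (adjusted p = 0.00435) and with no low-count filter (adjusted p = 0.00889).

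In phase I drug metabolism 6 were higher and 9 lower of 44 tested, with a median log2 fold change of 0.07 (under library-size scaling 1 and 16, median -0.28). Without each library in turn the calls numbered 6, 3, 1, 2, 2 and 1 higher. Cyp2e1, Cyp2c37 and Cyp2a5, given above as pericentral genes, are on this list too and among its lower members. The flavin monooxygenase genes Fmo5 and Fmo1 were lower at -0.82 (SE 0.14) and -0.70 (SE 0.13), and Cyp2c38 at -1.78 (SE 0.40). Cyp3a11, the most counted member whose test did not pass, stood at 1362, 2277 and 1400.0 CPM in the 0 h livers and 1339.6, 2304 and 1619.9 CPM in the 12 h livers with overlapping groups. In phase II 0 were higher and 3 lower of 29 tested (median -0.09; under library-size scaling 0 and 14, median -0.44), and Nat2, an acetyltransferase, was lower at -1.09 (SE 0.27). Leave-one-out fits called 0, 1, 0, 0, 0 and 0 higher. Of 20 glutathione S-transferases, 2 were higher and 1 lower (under library-size scaling 2 and 6, median -0.22). On omission of 1 library in turn, the calls were 2, 3, 1, 2, 2 and 1 higher and 0, 1, 0, 0, 0 and 1 lower. Gstp3 was higher each time, at 1.96 (SE 0.51).

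Among genes of bile acid synthesis and transport, 2 were higher and 7 lower of 27 tested, with a median log2 fold change of -0.22 (under library-size scaling 1 and 17, median -0.57). Leaving out 1 library in turn gave 2, 0, 0, 0, 0 and 2 higher. Slco1b2, an uptake carrier of the sinusoidal face, stood at 599, 604 and 584 CPM in the 0 h livers and 302, 314 and 276 CPM in the 12 h livers. At 12 h every liver was below the 0 h livers (log2 fold change -1.003, SE 0.23, adjusted p = 0.00270). The sterol exporters Abcg8 and Abcg5 fell together, Abcg8 from 42.9 ± 4.07 to 18.4 ± 1.14 CPM (SD, n = 3) and Abcg5 from 40.8 ± 2.90 to 24.9 ± 1.88 CPM. Nr0b2, the repressor SHP that bile acids induce through their receptor, was lower at -2.05 (SE 0.49). Transcription factors of hepatocyte identity leaned the same way: 1 was higher and 12 lower of 25 tested, with a median log2 fold change of -0.44 (under library-size scaling 0 and 18, median -0.79). The counts without 1 library at a time were 2, 1, 1, 2, 1 and 1 higher. Ppara, the fasting receptor for fatty acids, was at 262, 231 and 259.5 CPM in the 0 h livers and 91.7, 87.3 and 102 CPM in the 12 h livers. There was no overlap (log2 fold change -1.42, SE 0.17, adjusted p = 1.7e-07). Nr5a2 (LRH-1) was lower at -1.05 (SE 0.13), Foxa2 at -1.30 (SE 0.33), the dioxin receptor Ahr at -1.49 (SE 0.28), Nr1h3 (LXR alpha) at -0.78 (SE 0.20) and Zbtb20 at -0.59 (SE 0.11). Cebpa was the member called higher, at 47.2, 41.8 and 45.7 CPM in the 0 h livers and 68.3, 58.9 and 69.2 CPM in the 12 h livers. Livers at 12 h lay above those at 0 h throughout (log2 fold change 0.54, SE 0.14, adjusted p = 0.00541). Hnf4a, the central factor of the set, stood at 315, 311 and 349 CPM in the 0 h livers and 282, 282 and 244 CPM in the 12 h livers. The groups did not overlap and its test did not pass (adjusted p = 0.0690). Cebpa had an adjusted p of 0.318 under library-size scaling. Hnf4a was called lower under library-size scaling (adjusted p = 1.8e-04), with no low-count filter (adjusted p = 0.0348) and by DESeq2 (adjusted p = 0.0300).

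Counts of plasma protein genes turned with the scaling. Of carriers and inhibitors, 7 were higher and 1 lower of 28 tested, with a median log2 fold change of 0.22 (under library-size scaling 1 and 4, median -0.14). With each library left out in turn, 5, 9, 4, 5, 5 and 5 higher and 1, 1, 0, 1, 0 and 0 lower were called. Alb, serum albumin, was at 21886, 18185 and 18920.3 CPM in the 0 h livers and 28000.5, 31554 and 33431 CPM in the 12 h livers. In all 3 livers at 12 h the level was above the 0 h range (log2 fold change 0.66, SE 0.14, adjusted p = 7.5e-04). Ttr, the thyroid hormone carrier, rose by 0.61 (SE 0.13), Afm, the vitamin E carrier, by 0.85 (SE 0.14) and Ecm1 by 0.77 (SE 0.17). Among apolipoproteins 3 were higher and 1 lower of 23 tested, with a median log2 fold change of 0.19 (under library-size scaling 1 and 6, median -0.15). Without each library in turn the calls numbered 3, 6, 3, 2, 3 and 3 higher and 0, 0, 0, 0, 0 and 1 lower. Apoc3, an inhibitor of lipoprotein lipase, rose by 0.50 (SE 0.12). Apob stood at 12787, 14098 and 11536 CPM in the 0 h livers and 11774, 10936 and 11708 CPM in the 12 h livers and its test did not pass (adjusted p = 0.374). Coagulation factors gave 1 higher and 2 lower of 26 (median 0.04; under library-size scaling 0 and 9, median -0.31). Pros1, protein S, was lower at -0.81 (SE 0.17). Leave-one-out fits called 0, 0, 1, 1, 1 and 0 higher and 1, 1, 1, 1, 1 and 1 lower. Of complement genes, 1 was higher and 5 lower of 27 tested, with a median log2 fold change of 0.05 (under library-size scaling 0 and 10, median -0.30). On omission of 1 library in turn, the calls were 1, 0, 0, 0, 1 and 0 higher and 4, 4, 4, 3, 4 and 4 lower. C1rl was lower at -0.74 (SE 0.14) and the mannose-binding lectin gene Mbl1 at -0.61 (SE 0.15). Under library-size scaling the adjusted p was 0.0962 for Alb, 0.0821 for Ttr, 0.0645 for Ecm1 and 0.395 for Apoc3. Apob was called lower under library-size scaling (adjusted p = 0.00100).

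The acute phase, the programme by which interleukin 6 raises hepatic plasma proteins, was called at a share close to the 25.6% of all genes: 5 were higher and 3 lower of 30 tested, with a median log2 fold change of 0.18 (under library-size scaling 3 and 3, median -0.18). Leaving out 1 library in turn gave 3, 3, 4, 4, 3 and 4 higher and 1, 1, 3, 1, 1 and 1 lower. The metallothionein genes led the higher ones: Mt2 stood at 72.1, 35.7 and 96.6 CPM in the 0 h livers and 667, 567 and 584 CPM in the 12 h livers. The ranges of both times did not meet (log2 fold change 3.14, SE 0.34, adjusted p = 1.9e-06). Mt1 was at 74.2, 46.9 and 92.5 CPM in the 0 h livers and 521, 368 and 431 CPM in the 12 h livers. The groups did not overlap (log2 fold change 2.62, SE 0.38, adjusted p = 6.7e-05). Crp was lower at -0.78 (SE 0.14). Fga, the fibrinogen alpha chain, stood at 1456, 1179 and 1376 CPM in the 0 h livers and 1452, 1584 and 1564 CPM in the 12 h livers with overlapping groups (adjusted p = 0.699). The serum amyloid gene Saa1 had 3.74, 8.62 and 8.66 CPM in the 0 h livers and 6.33, 7.23 and 5.45 CPM in the 12 h livers and no call. Against the WT livers at 3 h the group differed: 21 of 30 members were lower at 12 h than at 3 h and 1 higher, with a median log2 difference of -1.34. Over all genes 5.38% were lower and 7.43% higher in that comparison. Fga had 1485, 5131 and 6698 CPM in the 3 h livers, one of them at the level of 0 h, and the 12 h livers differed from them by -1.53 (SE 0.32, adjusted p = 0.00318). With only the compared groups in the fit the adjusted p was 0.204.

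Lipid genes were called in both directions, to be read against 13.4% higher and 12.2% lower over all genes. Fatty acid oxidation and PPARA target genes were called at a share close to the 25.6% of all genes. Of 42 tested, 4 were higher and 6 lower, with a median log2 fold change of -0.15 (under library-size scaling 3 and 27, median -0.51). The counts without 1 library at a time were 4, 6, 3, 3, 1 and 7 lower. Pdk4, a kinase that spares pyruvate from oxidation, was at 7.22, 10.1 and 12.7 CPM in the 0 h livers and 58.2, 51.1 and 212 CPM in the 12 h livers. All 12 h livers lay above all 0 h livers (log2 fold change 3.43, SE 0.55, adjusted p = 1.8e-04). Plin2, the coat protein of lipid droplets, rose from 136 ± 15.9 to 334 ± 74.2 CPM (SD, n = 3) and Angptl4, an inhibitor of lipoprotein lipase, from 60.05 ± 4.79 to 113 ± 8.83 CPM. In lipogenesis 7 were higher and 4 lower of 27 tested, with a median log2 fold change of 0.21 (under library-size scaling 2 and 6, median -0.14). With each library left out in turn, 5, 4, 7, 5, 6 and 4 higher were called. Srebf1, the master regulator of fatty acid synthesis, rose by 2.26 (SE 0.35), its target Thrsp by 2.61 (SE 0.44) and the phosphatidate phosphatase Lpin2 by 0.74 (SE 0.18). Lpin1 was lower at -1.54 (SE 0.39) and the elongases Elovl6 and Elovl2 at -1.15 (SE 0.23) and -0.69 (SE 0.14). Of cholesterol synthesis genes 1 was higher and 0 lower of 23, below the share of all genes (under library-size scaling 1 and 4, median -0.24). Without each library in turn the calls numbered 1, 2, 1, 1, 1 and 1 higher. In glucose and glycogen metabolism 6 were higher and 9 lower of 24 tested, with a median log2 fold change of -0.26 (under library-size scaling 2 and 12, median -0.62). Leave-one-out fits called 4, 5, 2, 4, 3 and 5 higher and 5, 9, 7, 4, 6 and 7 lower. Igfbp1, an insulin-repressed IGF binding protein, stood at 184, 164 and 238 CPM in the 0 h livers and 720.2, 571 and 525 CPM in the 12 h livers. Each 12 h liver was above the 0 h range (log2 fold change 1.63, SE 0.35, adjusted p = 0.00232). The insulin receptor substrate gene Irs1 was lower at -1.08 (SE 0.24). In the growth hormone and IGF1 axis Jak2 rose by 0.83 (SE 0.14), among 2 higher and 0 lower of 21 (under library-size scaling 1 and 1, median -0.32). On omission of 1 library in turn, the calls were 3, 2, 2, 2, 1 and 2 higher. Lpin2 had an adjusted p of 0.0507 under library-size scaling.

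Clock genes differed between the times more often than genes at large: 11 were higher and 6 lower of 22 tested, with a median log2 fold change of 0.74 (under library-size scaling 9 and 8, median 0.37). The clock is a loop in which BMAL1 and its partners drive Per and Cry genes, whose products shut the loop off, while DBP, TEF and HLF against NFIL3 read D-box elements of output genes. Bmal1 was at 3.48, 5.47 and 6.00 CPM in the 0 h livers and 28.8, 24.2 and 26.2 CPM in the 12 h livers. No liver of one group reached the other (log2 fold change 2.41, SE 0.26, adjusted p = 1.4e-07). It had already reached 25.6, 17.7 and 19.995 CPM in the WT livers at 1 h (log2 fold change of 1 h over 0 h 2.10, SE 0.26, adjusted p = 5.0e-06, in a comparison that called 8.09% of genes). Nfil3 stood at 6.57, 10.7 and 4.53 CPM in the 0 h livers and 50.3, 41.7 and 56.3 CPM in the 12 h livers. The 3 livers at 12 h were all above those at 0 h (log2 fold change 2.82, SE 0.21, adjusted p = 1.1e-11). Its opponent Tef stood at 101, 89.8 and 90.9 CPM in the 0 h livers and 26.6, 28.3 and 27.2 CPM in the 12 h livers. Both groups stayed apart (log2 fold change -1.77, SE 0.16, adjusted p = 1.1e-09). Cry1 rose by 1.81 (SE 0.27), Per2 by 1.25 (SE 0.19), Per1 by 0.995 (SE 0.15) and the repressor Bhlhe40 by 2.46 (SE 0.33). Per3 was lower at -1.86 (SE 0.38), Hlf at -0.87 (SE 0.17) and Cipc at -1.20 (SE 0.19). Time of day is not given in the labels, and for these genes above all it cannot be told apart from the drug.

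With TMM, genes of the respiratory chain, ribosomal proteins and proteasome were called less often than the 25.6% of all genes. Of 75 nuclear genes of the respiratory chain, 5 were higher and 0 lower (median 0.18; under library-size scaling 0 and 9, median -0.17). Leaving out 1 library in turn gave 6, 2, 5, 3, 4 and 2 higher. Of 79 ribosomal protein genes, 4 were higher and 0 lower (median 0.11; under library-size scaling 0 and 17, median -0.25). The counts without 1 library at a time were 5, 1, 2, 3, 3 and 1 higher. Ribosome biogenesis factors, which assemble ribosomes in the nucleolus, were called higher at a share above the 13.4% of all genes with TMM, but not above their 7.11% with library-size scaling: 20 were higher and 0 lower of 67 tested, with a median log2 fold change of 0.41 (under library-size scaling 3 and 4, median 0.05). With each library left out in turn, 10, 18, 13, 12, 12 and 13 higher were called. The nucleolar GTPase gene Gnl3 was at 17.9, 17.4 and 21.9 CPM in the 0 h livers and 30.05, 30.01 and 40.5 CPM in the 12 h livers. At 12 h every liver was above the 0 h livers (log2 fold change 0.81, SE 0.17, adjusted p = 4.7e-04). The acetyltransferase gene Nat10 was at 11.1, 12.2 and 9.86 CPM in the 0 h livers and 19.3, 19.7 and 19.7 CPM in the 12 h livers. There was no overlap (log2 fold change 0.84, SE 0.18, adjusted p = 6.9e-04). Ncl, the most counted member, stood at 266, 444 and 261 CPM in the 0 h livers and 446, 436 and 413 CPM in the 12 h livers with overlap (adjusted p = 0.0765). Cytosolic tRNA synthetases gave 4 higher and 0 lower of 20 (under library-size scaling 3 and 3, median -0.12), namely Wars1 at 2.01 (SE 0.23), Cars1 at 1.11 (SE 0.25), Tars1 at 0.83 (SE 0.11) and Eprs1 at 0.45 (SE 0.11). Proteasome subunits gave 3 higher and 2 lower of 38 (under library-size scaling 0 and 22, median -0.44). Without each library in turn the calls numbered 2, 2, 0, 3, 1 and 0 higher and 1, 2, 4, 1, 1 and 1 lower. Psma1 was lower each time, at -0.61 (SE 0.16). Of the mRNAs of the mitochondrial genome, 3 were higher and 1 lower of 13 tested, with a median log2 fold change of 0.25 (under library-size scaling 1 and 2, median -0.10). Leave-one-out fits called 0, 1, 1, 0, 1 and 0 lower. ND5 rose from 11955 ± 1285 to 18292 ± 1792 CPM (SD, n = 3). Under library-size scaling the adjusted p was 0.0633 for Gnl3, 0.519 for Eprs1 and 0.0788 for ND5. Ncl was called higher with no low-count filter (adjusted p = 0.0391) and without WT 0 h replicate 2 (adjusted p = 0.00120).

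Immediate early genes, which signalling kinases switch on without new protein synthesis, had the highest median of the gene groups described here. Of 40 listed, 32 passed the filter on low counts, and 31 of these were higher and 0 lower, with a median log2 fold change of 3.16 (under library-size scaling 30 and 0, median 2.80). The filter admits genes counted at 12 h alone, so members with few counts at 0 h entered because they are high at 12 h. Fos, the AP-1 subunit, was counted at 0.387, 0 and 0.533 CPM in the 0 h livers and 110.1, 72.5 and 117 CPM in the 12 h livers. Its groups lay apart by a 271-fold difference (log2 fold change 8.08, SE 0.49, adjusted p = 3.0e-10). Jun, its partner, stood at 13.1, 8.83 and 8.26 CPM in the 0 h livers and 472, 399 and 514 CPM in the 12 h livers. Livers at 12 h lay above those at 0 h throughout (log2 fold change 5.50, SE 0.26, adjusted p = 7.5e-13). Egr1, a zinc finger factor, was at 7.99, 4.83 and 5.06 CPM in the 0 h livers and 542, 463 and 702 CPM in the 12 h livers. In all 3 livers at 12 h the level was above the 0 h range (log2 fold change 6.55, SE 0.44, adjusted p = 5.0e-09). Atf3, a repressor induced by stress, stood at 0.773, 0.841 and 0.266 CPM in the 0 h livers and 121, 94.2 and 105 CPM in the 12 h livers. The ranges of both times did not meet (log2 fold change 7.42, SE 0.43, adjusted p = 1.4e-10). The growth arrest gene Btg2 was at 15.1, 11.1 and 16.3 CPM in the 0 h livers and 471, 338 and 593 CPM in the 12 h livers. The groups did not overlap (log2 fold change 5.03, SE 0.30, adjusted p = 1.8e-10). The orphan receptor gene Nr4a1 was at 0.387, 0.631 and 0.133 CPM in the 0 h livers and 25.3, 15.6 and 37.1 CPM in the 12 h livers. All 12 h livers lay above all 0 h livers (log2 fold change 6.13, SE 1.096, adjusted p = 5.3e-04). Zfp36, which destroys mRNAs of cytokines, rose from 31.02 ± 5.07 to 241 ± 39.5 CPM (SD, n = 3), and Maff, a small MAF protein, from 2.68 ± 0.140 to 58.6 ± 12.5 CPM. Myc rose from 4.77 ± 1.48 to 32.5 ± 1.32 CPM and the kinase gene Plk3 from 22.5 ± 2.70 to 267 ± 49.95 CPM. Klf10 was the tested member without a call, at 14.95, 11.4 and 25.6 CPM in the 0 h livers and 23.1, 25.8 and 30.9 CPM in the 12 h livers (adjusted p = 0.0976). Klf10 was called higher with no low-count filter (adjusted p = 0.0341) and without WT 0 h replicate 3 (adjusted p = 0.00427).

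Sequences before the start sites of 6 of these induced or clock genes are printed because many immediate early genes are read by CREB family factors, which bind the letters TGACG (a CRE half-site) on either strand, and clock output genes by D-box factors, which bind TTATGNAA. Each window holds the 250 bases before the start in RefSeq on build GRCm38.p6, read 5′ to 3′ along the gene's strand: Fos at chr12:85473640-85473889 (plus strand), Nr4a1 at chr15:101266596-101266845 (plus), Atf3 at chr1:191183334-191183583 (minus), Btg2 at chr1:134079156-134079405 (minus), Dusp1 at chr17:26508473-26508722 (minus) and Per3 at chr4:151044666-151044915 (minus). Capitals mark the CRE half-site on either strand in the first 5 and the D-box in Per3; a half-site on the other strand reads CGTCA, and TGACGTCA holds one on each strand.
Fos: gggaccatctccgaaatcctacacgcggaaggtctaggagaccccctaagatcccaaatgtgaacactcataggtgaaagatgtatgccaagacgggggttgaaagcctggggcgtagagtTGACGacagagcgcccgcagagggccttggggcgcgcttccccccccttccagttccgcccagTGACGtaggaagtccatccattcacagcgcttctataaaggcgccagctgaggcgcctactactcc
Nr4a1: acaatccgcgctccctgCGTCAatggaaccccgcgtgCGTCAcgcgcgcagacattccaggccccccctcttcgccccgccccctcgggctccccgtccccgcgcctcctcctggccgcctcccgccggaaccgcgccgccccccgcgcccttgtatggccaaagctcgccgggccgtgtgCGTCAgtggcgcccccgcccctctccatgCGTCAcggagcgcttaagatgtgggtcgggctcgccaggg
Atf3: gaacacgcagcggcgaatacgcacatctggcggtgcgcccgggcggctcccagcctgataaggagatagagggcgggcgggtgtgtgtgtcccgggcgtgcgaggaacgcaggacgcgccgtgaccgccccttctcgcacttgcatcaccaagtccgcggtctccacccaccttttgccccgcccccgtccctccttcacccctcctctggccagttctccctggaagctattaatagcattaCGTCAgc
Btg2: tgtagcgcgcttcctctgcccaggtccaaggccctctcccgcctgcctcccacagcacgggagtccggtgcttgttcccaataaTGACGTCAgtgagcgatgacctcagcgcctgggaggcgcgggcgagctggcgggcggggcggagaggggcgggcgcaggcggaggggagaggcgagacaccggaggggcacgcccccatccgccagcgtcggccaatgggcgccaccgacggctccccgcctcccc
Dusp1: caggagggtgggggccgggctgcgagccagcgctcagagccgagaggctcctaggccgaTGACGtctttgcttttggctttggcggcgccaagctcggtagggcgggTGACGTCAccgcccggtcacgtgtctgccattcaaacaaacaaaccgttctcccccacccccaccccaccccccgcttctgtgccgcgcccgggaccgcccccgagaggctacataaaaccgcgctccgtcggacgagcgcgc
Per3: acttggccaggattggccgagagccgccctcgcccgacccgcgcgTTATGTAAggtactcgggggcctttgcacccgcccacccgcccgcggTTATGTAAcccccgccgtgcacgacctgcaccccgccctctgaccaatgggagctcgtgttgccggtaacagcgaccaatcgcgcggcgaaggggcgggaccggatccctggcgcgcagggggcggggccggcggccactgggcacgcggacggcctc

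The Fos window holds 2 half-sites, Nr4a1 4, Atf3 1, Btg2 2 that overlap as a full palindrome, and Dusp1 3, while Per3 holds 2 D-boxes. The printed genes were required to hold their motif, so these matches are no result about the genes. Of immediate early genes called higher with a window in the table, 17 of 27 (63.0%) held a half-site, against 29.7% of the 9621 tested genes with a window, 33.5% of all genes called higher and 24.7% of those called lower. The AP-1 site TGANTCA was in 2 of 27 of them and in 5.83% of tested genes. The D-box was in 1 of 8 clock genes called higher, in 1 of 6 called lower and in 2.72% of tested genes, and the E-box CACGTG in 3 of 8, 2 of 6 and 9.69%. Letters in a window describe the sequence and are not bound sites. Dusp1, the phosphatase that switches off JNK and p38, was at 7.60, 3.78 and 10.7 CPM in the 0 h livers and 64.5, 64.5 and 76.5 CPM in the 12 h livers. Each 12 h liver was above the 0 h range (log2 fold change 3.16, SE 0.33, adjusted p = 1.1e-06).

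**Figure D2:**
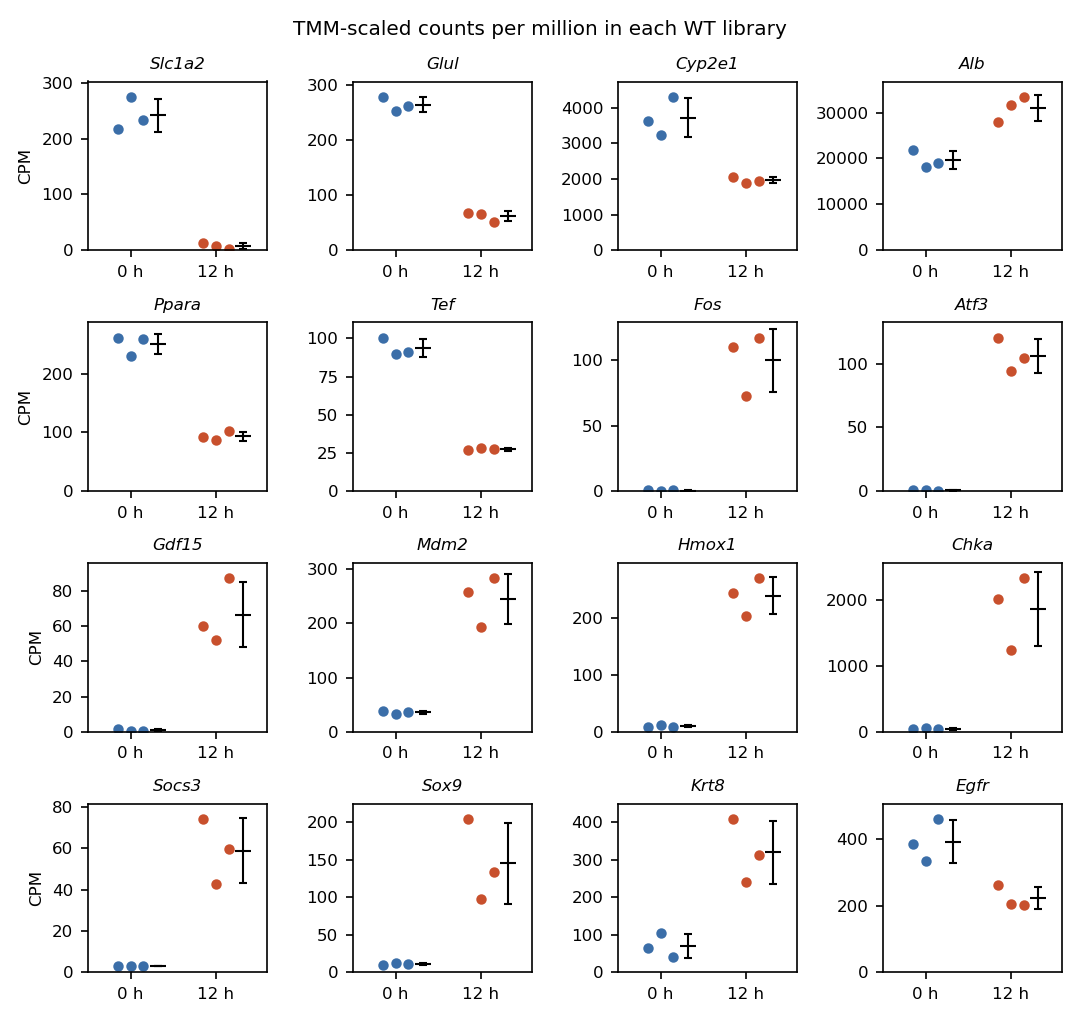
TMM-scaled CPM (vertical axis, from 0, scaled per panel) of 16 genes in the 3 WT livers at 0 h (blue) and the 3 at 12 h (orange), with the mean and SD of each group as a black bar. The groups do not overlap in any panel; Egfr is the gene among them whose test did not pass (adjusted p = 0.190).

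Stress programmes had unequal shares of higher genes. In the integrated stress response, in which phosphorylation of eIF2 alpha favours translation of ATF4, 13 were higher and 1 lower of 24 tested, with a median log2 fold change of 0.91 (under library-size scaling 11 and 2, median 0.55). Gdf15, a hormone that curbs appetite, stood at 1.42, 0.631 and 0.533 CPM in the 0 h livers and 60.4, 51.97 and 87.4 CPM in the 12 h livers. No liver of one group reached the other (log2 fold change 6.19, SE 0.44, adjusted p = 4.0e-09). Ddit3 (CHOP) was at 3.74, 5.04 and 4.40 CPM in the 0 h livers and 43.02, 28.6 and 27.2 CPM in the 12 h livers. The 3 livers at 12 h were all above those at 0 h (log2 fold change 2.92, SE 0.26, adjusted p = 2.5e-09). Ppp1r15a, the subunit that reverses the phosphorylation, stood at 7.35, 6.10 and 6.26 CPM in the 0 h livers and 41.8, 39.2 and 51.9 CPM in the 12 h livers. Both groups stayed apart (log2 fold change 2.74, SE 0.19, adjusted p = 1.4e-12). Atf4 itself rose from 26.7 ± 1.63 to 63.7 ± 16.3 CPM (SD, n = 3), and Cebpg was lower at -0.68 (SE 0.14). ER chaperones were called at a share below the 25.6% of all genes. Of 24 tested, 4 were higher and 0 lower, with a median log2 fold change of 0.23 (under library-size scaling 3 and 4, median -0.13). Hspa5 (BiP) was at 229, 218 and 162 CPM in the 0 h livers and 525, 459.7 and 580.4 CPM in the 12 h livers. At 12 h every liver was above the 0 h livers (log2 fold change 1.36, SE 0.15, adjusted p = 4.3e-08). The sensor gene Ern1 (IRE1) rose by 1.61 (SE 0.18). Hsp90b1 stood at 607, 796 and 505 CPM in the 0 h livers and 783, 812 and 729 CPM in the 12 h livers and its test did not pass. Among cytosolic heat shock chaperones 7 were higher and 2 lower of 24 tested, with a median log2 fold change of 0.09 (under library-size scaling 3 and 6, median -0.27). On omission of 1 library in turn, the calls were 4, 8, 4, 5, 7 and 6 higher and 2, 2, 3, 1, 2 and 2 lower. Dnajb1 rose by 2.93 (SE 0.36) and Hspb8 by 1.68 (SE 0.15), while Chordc1 was lower at -0.79 (SE 0.21). Hsp90ab1 stood at 626, 1034 and 469.5 CPM in the 0 h livers and 747, 617 and 654 CPM in the 12 h livers with overlap. Hsp90b1 was called higher without WT 0 h replicate 2 (adjusted p = 0.0390).

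Targets of p53, the arrest and death factor, gave 10 higher and 0 lower of 22 tested (median 0.49; under library-size scaling 8 and 4, median 0.13), several of them also in the immediate early or stress lists. Leaving out 1 library in turn gave 0, 0, 0, 0, 1 and 0 lower. Mdm2, the ligase that p53 induces against itself, was at 37.3, 33.2 and 36.5 CPM in the 0 h livers and 257, 193 and 283 CPM in the 12 h livers. There was no overlap (log2 fold change 2.77, SE 0.18, adjusted p = 3.1e-12). Cdkn1a (p21), the inhibitor of cell cycle kinases, stood at 4.38, 6.10 and 10.7 CPM in the 0 h livers and 96.5, 90.9 and 123 CPM in the 12 h livers. Livers at 12 h lay above those at 0 h throughout (log2 fold change 3.86, SE 0.41, adjusted p = 2.0e-06). Trp53inp1 rose by 1.75 (SE 0.18) and the death gene Bbc3 (PUMA) by 1.40 (SE 0.32). Ei24, the most counted member whose test did not pass, stood at 104, 119 and 126 CPM in the 0 h livers and 118, 118 and 109.7 CPM in the 12 h livers. Of NRF2 targets, which answer to electrophiles such as the acetaminophen quinone imine, 10 were higher and 1 lower of 40 tested, with a median log2 fold change of 0.26 (under library-size scaling 6 and 10, median -0.09). The counts without 1 library at a time were 1, 0, 0, 0, 1 and 1 lower. Hmox1, heme oxygenase 1, was at 8.38, 11.1 and 8.66 CPM in the 0 h livers and 244, 205 and 270.0 CPM in the 12 h livers. In all 3 livers at 12 h the level was above the 0 h range (log2 fold change 4.69, SE 0.52, adjusted p = 3.5e-06). Osgin1, a growth inhibitor induced by oxidised lipids, stood at 9.54, 12.8 and 8.26 CPM in the 0 h livers and 162, 126 and 172 CPM in the 12 h livers. The ranges of both times did not meet (log2 fold change 3.93, SE 0.28, adjusted p = 2.8e-09). Txnrd1, thioredoxin reductase, rose from 69.7 ± 4.19 to 152 ± 16.8 CPM (SD, n = 3) and Srxn1, sulfiredoxin, by 1.24 (SE 0.28). In metal, iron and heme handling 7 were higher and 3 lower of 22 tested, with a median log2 fold change of 0.26 (under library-size scaling 4 and 6, median -0.09). The transferrin receptor gene Tfrc rose by 1.29 (SE 0.22) and the ferritin light chain gene Ftl1 by 0.64 (SE 0.13), while Ireb2, an iron sensor that binds mRNAs, was lower at -0.91 (SE 0.13). Ftl1 had an adjusted p of 0.0604 under library-size scaling. Ei24 was called lower under library-size scaling (adjusted p = 0.0323).

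Of hypoxia and glycolysis genes, 9 were higher and 1 lower of 25 tested, with a median log2 fold change of 0.22 (under library-size scaling 5 and 4, median -0.14). With each library left out in turn, 9, 8, 5, 7, 6 and 7 higher and 0, 1, 0, 0, 0 and 1 lower were called. Hif1a was at 39.96, 45.4 and 49.03 CPM in the 0 h livers and 107, 95.6 and 97.5 CPM in the 12 h livers. The groups did not overlap (log2 fold change 1.16, SE 0.11, adjusted p = 1.3e-09). Vegfa, a growth factor of vessels, was at 84.7, 87.9 and 81.5 CPM in the 0 h livers and 140.4, 118 and 144 CPM in the 12 h livers. All 12 h livers lay above all 0 h livers (log2 fold change 0.67, SE 0.12, adjusted p = 8.1e-05). The muscle-type pyruvate kinase gene Pkm and the glucose carrier Slc2a1 rose by 1.67 (SE 0.27) and 1.13 (SE 0.25). Cell death genes gave 8 higher and 1 lower of 25 (median 0.30; under library-size scaling 7 and 5, median -0.06). Without each library in turn the calls numbered 2, 1, 1, 1, 1 and 1 lower. The called ones stood on both sides of survival: Mcl1, which protects mitochondria, rose by 1.29 (SE 0.17), the death activator Bcl2l11 (BIM) by 1.72 (SE 0.19) and Ripk1, of necroptosis, by 0.97 (SE 0.13), while Cflar, a brake on caspase 8, was lower at -0.60 (SE 0.12). Gadd45a, a p53 and stress target, was at 0.773, 0 and 0.266 CPM in the 0 h livers and 47.4, 44.7 and 42.3 CPM in the 12 h livers. Each 12 h liver was above the 0 h range (log2 fold change 6.74, SE 0.54, adjusted p = 1.2e-08). Autophagy and lysosome genes were called at a share close to the 25.6% of all genes. Of 31 tested, 5 were higher and 4 lower, with a median log2 fold change of 0.07 (under library-size scaling 1 and 14, median -0.28). Leave-one-out fits called 3, 3, 4, 3, 4 and 3 higher. The cargo receptor gene Sqstm1 (p62) rose from 105 ± 8.27 to 233 ± 38.4 CPM (SD, n = 3), and the cargo receptor genes Nbr1 and Optn were lower at -0.73 (SE 0.10) and -0.54 (SE 0.13).

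Egfr, the gene deleted in the other genotype of the study, was counted in WT liver at 385, 334 and 461 CPM in the 0 h livers and 263, 205 and 203 CPM in the 12 h livers. The groups did not overlap, and the test did not pass (log2 fold change -0.82, SE 0.43, adjusted p = 0.190). It was called lower at -0.80 with only the compared groups in the fit (adjusted p = 3.1e-04) and under library-size scaling (adjusted p = 0.0494). In the livers without hepatocyte EGFR it stood at 82.4 ± 25.3 CPM at 0 h and 75.4 ± 37.998 CPM at 12 h (SD, n = 3). Of the receptor family and its ligands, 6 were higher and 2 lower of 16 tested, with a median log2 fold change of 0.38 (under library-size scaling 5 and 5, median 0.02). On omission of 1 library in turn, the calls were 2, 1, 2, 1, 1 and 2 lower. Erbb3, the partner receptor for neuregulins, was at 88.03, 80.3 and 82.5 CPM in the 0 h livers and 27.5, 34.2 and 24.4 CPM in the 12 h livers. No liver of one group reached the other (log2 fold change -1.54, SE 0.13, adjusted p = 9.7e-11). The ligand Hbegf stood at 0.258, 0 and 0.266 CPM in the 0 h livers and 7.28, 5.56 and 2.59 CPM in the 12 h livers. The 3 livers at 12 h were all above those at 0 h (log2 fold change 4.53, SE 0.57, adjusted p = 3.6e-07). Areg, amphiregulin, had 2 counts at 0 h and 39 at 12 h. The ratio of CPM was 36.8 (95% exact interval 9.52 to 314, counting error only). Rhbdf1 and Rhbdf2, cofactors of the sheddase that frees such ligands, rose by 1.90 (SE 0.34) and 1.09 (SE 0.27). Feedback inhibitors and targets of ERK, the kinase below the receptor, gave 9 higher and 0 lower of 12 tested (17 listed). Their median log2 fold change was 1.68 (under library-size scaling 6 and 0, median 1.32). In this group and the receptor family the filter admits genes counted at 12 h alone. Members with few counts at 0 h, such as Hbegf and Areg, could thus enter because they are high at 12 h. The ERK phosphatase gene Dusp6 was at 4.64, 6.31 and 7.33 CPM in the 0 h livers and 55.7, 25.6 and 33.5 CPM in the 12 h livers. Both groups stayed apart (log2 fold change 2.64, SE 0.34, adjusted p = 6.9e-06). The ephrin receptor gene Epha2 stood at 9.67, 11.1 and 9.59 CPM in the 0 h livers and 67.1, 44.5 and 64.1 CPM in the 12 h livers. At 12 h every liver was above the 0 h livers (log2 fold change 2.54, SE 0.21, adjusted p = 4.6e-10). In the JNK and p38 pathway 9 were higher and 1 lower of 16 tested (median 0.86; under library-size scaling 7 and 3, median 0.51). The p38 substrate Mapkapk2 rose by 1.54 (SE 0.13) and the JNK phosphatases Dusp8 and Dusp10 by 3.96 (SE 0.37) and 2.79 (SE 0.30). Map2k6, the kinase that activates p38, was at 26.2, 19.3 and 24.9 CPM in the 0 h livers and 4.74, 4.45 and 2.85 CPM in the 12 h livers. There was no overlap (log2 fold change -2.57, SE 0.28, adjusted p = 2.1e-08).

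Part of the structural and wound genes rose. In the cytoskeleton group 14 were higher and 0 lower of 32 tested, with a median log2 fold change of 0.29 (under library-size scaling 11 and 6, median -0.06). Actb was at 76.9, 62.2 and 75.4 CPM in the 0 h livers and 194, 158 and 133 CPM in the 12 h livers. Livers at 12 h lay above those at 0 h throughout (log2 fold change 1.17, SE 0.16, adjusted p = 3.5e-06). Actg1, the other cytoplasmic actin, stood at 7.09, 9.67 and 11.2 CPM in the 0 h livers and 94.9, 65.9 and 72.9 CPM in the 12 h livers. In all 3 livers at 12 h the level was above the 0 h range (log2 fold change 3.06, SE 0.30, adjusted p = 3.6e-07). Krt8, the keratin of simple epithelia, stood at 64.4, 106 and 40.9 CPM in the 0 h livers and 408, 239.6 and 311 CPM in the 12 h livers. The ranges of both times did not meet (log2 fold change 2.19, SE 0.43, adjusted p = 0.00110). Its partner Krt18 rose by 1.34 (SE 0.23). The tubulin gene Tubb2a rose from 3.76 ± 0.392 to 46.8 ± 5.50 CPM (SD, n = 3) and the focal adhesion gene Vcl from 28.97 ± 2.65 to 69.8 ± 4.53 CPM. Of YAP targets and wound genes, 5 were higher and 1 lower of 19 tested, with a median log2 fold change of 0.14 (under library-size scaling 5 and 3, median -0.22). Leaving out 1 library in turn gave 0, 1, 1, 0, 1 and 0 lower. Tnfrsf12a, the receptor of TWEAK, was at 0.902, 1.47 and 0.666 CPM in the 0 h livers and 19.9, 21.95 and 25.2 CPM in the 12 h livers. The groups did not overlap (log2 fold change 4.52, SE 0.32, adjusted p = 2.8e-12). Ccn1, a matrix protein, stood at 1.42, 1.05 and 0.799 CPM in the 0 h livers and 21.2, 17.2 and 18.7 CPM in the 12 h livers. All 12 h livers lay above all 0 h livers (log2 fold change 4.09, SE 0.37, adjusted p = 2.1e-09). Of growth factor, TGF-beta and WNT genes, 9 were higher and 3 lower of 25 tested, with a median log2 fold change of 0.41 (under library-size scaling 6 and 6, median 0.05). Hgf rose by 0.63 (SE 0.16). Its receptor Met fell from 66.3 ± 10.6 to 32.4 ± 3.77 CPM, and the BMP targets Id1, Id2 and Id3 rose by 2.27 (SE 0.36), 1.88 (SE 0.22) and 4.04 (SE 0.35). Under library-size scaling the adjusted p was 0.188 for Hgf.

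Cell cycle entry genes were called at a share close to the 25.6% of all genes. They gave 4 higher and 2 lower of 23 (median 0.23, and under library-size scaling 4 and 6, median -0.13). The higher ones were Myc and Cdkn1a above and the replication genes Pcna at 0.97 (SE 0.24) and Mcm5 at 3.23 (SE 0.74). Cdk6 was lower at -0.65 (SE 0.16), with E2f3 at -0.49 (SE 0.17). E2f3 lost its call without any 1 of 5 libraries, all but WT 12 h replicate 1 (adjusted p up to 0.160). The counts without 1 library at a time were 1, 2, 1, 2, 1 and 1 lower. Of 23 mitosis genes listed, 9 passed the filter, and 0 were higher and 0 lower by edgeR's quasi-likelihood test (median 0.20; under library-size scaling 0 and 0, median -0.16). At an unadjusted p under 0.05 there was 1, Ccnb2, and DESeq2 called 0. Mki67, a proliferation marker, stood at 2.71, 3.99 and 5.86 CPM in the 0 h livers and 5.69, 3.89 and 8.30 CPM in the 12 h livers, with overlap (adjusted p = 0.555). Top2a, a topoisomerase of dividing cells, overlapped too. It stood at 0.644, 1.05 and 1.47 CPM in the 0 h livers and 0.633, 1.67 and 0 CPM in the 12 h livers.

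A few inflammatory genes rose. Of cytokines, chemokines and NF-kB genes 45 were listed, 23 passed the filter, and 7 were higher and 0 lower (median 0.47; under library-size scaling 4 and 1, median 0.11). Here too the filter admits genes counted at 12 h alone. With each library left out in turn, 1, 0, 0, 0, 0 and 0 lower were called. Cxcl10, a chemokine for T cells, was at 0.644, 0.631 and 1.07 CPM in the 0 h livers and 22.1, 16.4 and 17.9 CPM in the 12 h livers. Each 12 h liver was above the 0 h range (log2 fold change 4.52, SE 0.36, adjusted p = 3.8e-11). Nfkbiz, a nuclear partner of NF-kB, stood at 5.03, 5.68 and 6.66 CPM in the 0 h livers and 67.1, 44.7 and 74.95 CPM in the 12 h livers. No liver of one group reached the other (log2 fold change 3.42, SE 0.23, adjusted p = 7.2e-12). Cxcl1, a neutrophil attractant, was at 0.516, 1.26 and 1.33 CPM in the 0 h livers and 20.6, 9.45 and 7.00 CPM in the 12 h livers. The 3 livers at 12 h were all above those at 0 h (log2 fold change 3.57, SE 0.56, adjusted p = 5.0e-05). Cxcl2, below the filter, had 1 count at 0 h and 26 at 12 h. The ratio of CPM was 49.04 (95% exact interval 8.06 to 2010.4, counting error only). Il6, Tnf and Ccl2 had 1, 1 and 1 counts over the 0 h livers and 1, 0 and 2 over the 12 h livers, so no difference in them was detectable at this depth. In IL-6, IL-1 and STAT3 signalling 8 were higher and 3 lower of 18 tested (median 0.40; under library-size scaling 7 and 4, median 0.03). Socs3, the feedback inhibitor of STAT3, was at 2.96, 3.15 and 3.33 CPM in the 0 h livers and 74.02, 42.8 and 59.4 CPM in the 12 h livers. Both groups stayed apart (log2 fold change 4.21, SE 0.26, adjusted p = 1.1e-12). The receptor gene Osmr rose by 1.83 (SE 0.26) and the kinase genes Pim3 and Pim1 by 2.17 (SE 0.22) and 1.24 (SE 0.23), while Il6ra was lower at -0.81 (SE 0.17). Interferon genes were called at a share close to the 25.6% of all genes. Of 35 tested, 6 were higher and 3 lower, with a median log2 fold change of 0.27 (under library-size scaling 4 and 8, median -0.09). Without each library in turn the calls numbered 2, 3, 3, 2, 0 and 2 lower. Oasl1 and Ifit2 rose by 2.62 (SE 0.47) and 1.79 (SE 0.43). H2-K1, of antigen presentation, stood at 94.2, 95.01 and 126 CPM in the 0 h livers and 116, 126 and 140.3 CPM in the 12 h livers without a call. H2-K1 was called higher on own-strand counts (adjusted p = 0.0401) and without WT 0 h replicate 3 (adjusted p = 0.0151).

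Markers of the cell types that liver holds were summed per library. Hepatocyte markers, 12 genes with Alb the most counted, summed to 49398 to 53412 CPM at 0 h and 56718 to 61634 CPM at 12 h. This rise rests on Alb, and the other markers together did not rise. Alb was not called under library-size scaling (adjusted p = 0.0962). By single genes 3 were higher and 2 lower of 12 (under library-size scaling 0 and 5, median -0.31). The 13 cholangiocyte markers summed to 33.6 to 38.3 CPM at 0 h and 120.3 to 234 CPM at 12 h, a rise that rests on Sox9, at 9.28, 11.98 and 10.7 CPM in the 0 h livers and 204, 96.99 and 134 CPM in the 12 h livers. At 12 h every liver was above the 0 h livers (log2 fold change 3.78, SE 0.42, adjusted p = 3.6e-06). The defining bile duct genes did not share it. Krt19 had 3 counts at each time and Krt7 had 5 and then 0, from fewer counted reads over the 12 h livers. Epcam overlapped, at 0.902, 1.47 and 0.533 CPM in the 0 h livers and 0.949, 0.834 and 0.519 CPM in the 12 h livers. The 15 Kupffer cell markers summed to 152 to 242 CPM at 0 h and 262 to 346 CPM at 12 h, with Id3 among them, while Clec4f, their defining gene, stood at 18.9, 23.96 and 28.2 CPM in the 0 h livers and 22.1, 22.8 and 24.9 CPM in the 12 h livers with overlap. By single genes 2 of 15 Kupffer markers were higher (Id3 and Cd68, the latter at 1.605 (SE 0.30)). The 3 lower ones were Slc40a1, Cd163 and Marco. The group had a median log2 fold change of -0.09 (under library-size scaling 2 higher and 3 lower, median -0.46). Leave-one-out fits called 3, 2, 1, 0, 2 and 2 lower. The 15 neutrophil markers were all below the filter, with sums of 0.773 to 3.15 CPM at 0 h and 7.00 to 13.3 CPM at 12 h. S100a8 had 3 counts at 0 h and 21 at 12 h. The ratio of CPM was 13.2 (95% exact interval 3.94 to 69.1, counting error only). Monocyte markers summed to 29.8 to 44.9 CPM at 0 h and 28.2 to 33.9 CPM at 12 h and overlapped. Ly6c2 had 3 and 2 counts and Ccr2 10 and 2, from fewer counted reads over the 12 h livers. Sinusoidal endothelial markers (569 to 639 CPM at 0 h and 619 to 675 CPM at 12 h) overlapped too, with 2 of 19 called higher (under library-size scaling 0 and 5, median -0.24). On omission of 1 library in turn, the calls were 0, 1, 2, 0, 1 and 0 higher and 0, 0, 0, 0, 1 and 0 lower. Stellate cell markers summed to 227 to 264 CPM at 0 h and 277 to 340.3 CPM at 12 h, with 3 higher and 1 lower of 17 (under library-size scaling 1 and 1, median 0.02). Leaving out 1 library in turn gave 3, 3, 3, 2, 2 and 1 higher. Among them Sparc rose by 0.93 (SE 0.20) and Hand2 was lower at -1.44 (SE 0.31). Red cell markers overlapped (63.8 to 147 CPM at 0 h and 80.7 to 110.5 CPM at 12 h), and the immunoglobulin genes Ighm, Igkc and Iglc2 were at 0 in all 6 libraries. What part these sums have in the gene differences above was not tested.

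**Figure D3:**
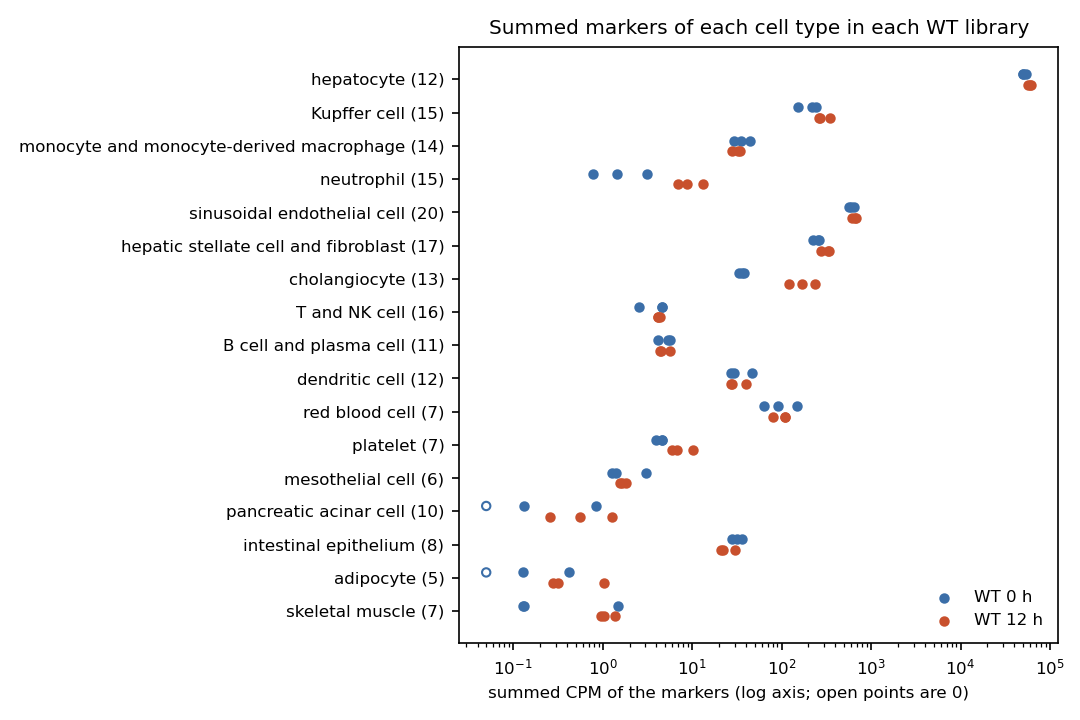
Summed CPM of the markers of each cell type (number of markers in parentheses) on a log axis, with 1 point per WT liver at 0 h (blue) and 12 h (orange) and open points for sums of 0. Hepatocyte, Kupffer cell, stellate cell, cholangiocyte, neutrophil and platelet sums lie higher at 12 h in all 3 livers. The hepatocyte rise rests on Alb. By single genes 2 of 15 Kupffer markers were higher and 3 lower, with a median log2 fold change of -0.09. Platelet sums lay at 4.00 to 4.64 CPM at 0 h and 6.01 to 10.3 CPM at 12 h, with 0 of 2 tested markers called. Cholangiocyte sums run from 33.6 to 38.3 CPM at 0 h and 120.3 to 234 CPM at 12 h, a rise that rests on Sox9. The other sums, among them those of monocytes, endothelium and red cells, overlap.

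The 12 h livers were also compared with the WT livers at 3 h, the nearest earlier time. In this comparison 1691 genes differed (12.8% of those tested), 981 higher and 710 lower at 12 h. Both comparisons use the same 12 h livers. Genes higher at 12 h include Cxcl10, at 0.551, 0 and 0.316 CPM in the 3 h livers, with a log2 difference of 12 h over 3 h of 5.77 (SE 0.43, adjusted p = 3.3e-11). Phlda1, a target of ERK and of IGF1, was at 16.8, 14.3 and 12.1 CPM at 0 h, 15.1, 9.99 and 9.58 at 1 h, 4.27, 2.84 and 2.21 at 3 h and 91.1, 44.5 and 87.4 at 12 h. Its level was thus lowest at 3 h and highest at 12 h, with a 12 h over 3 h difference of 4.54 (SE 0.46, adjusted p = 2.3e-06). Fos was at 6.88, 2.64 and 4.58 CPM at 3 h and differed by 4.35 (SE 0.34, adjusted p = 3.3e-08). The corresponding differences were 5.73 for Fosb, 4.42 for Maff and 3.24 for Tnfrsf12a. Slc1a2 still stood at 169, 221 and 196 CPM at 3 h and fell by 4.73 (SE 0.49, adjusted p = 4.2e-06) to 12 h. Ppp1r3c, which ties phosphatase to glycogen, was at 24.4, 25.8 and 21.9 CPM at 3 h, above its 0 h range. At 12 h it was at 4.11, 4.17 and 5.19, below that range (12 h over 3 h -2.40, SE 0.36, adjusted p = 5.6e-05). Its call of 12 h against 0 h was lost without WT 0 h replicate 1 or any WT 12 h replicate (adjusted p = 0.0651 to 0.149). A replicate block lost it too (adjusted p = 0.0523). Lpin2, Cebpa and Per2 rose from 3 h to 12 h by 1.36, 1.04 and 2.07 on the log2 scale.

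**Figure D4:**
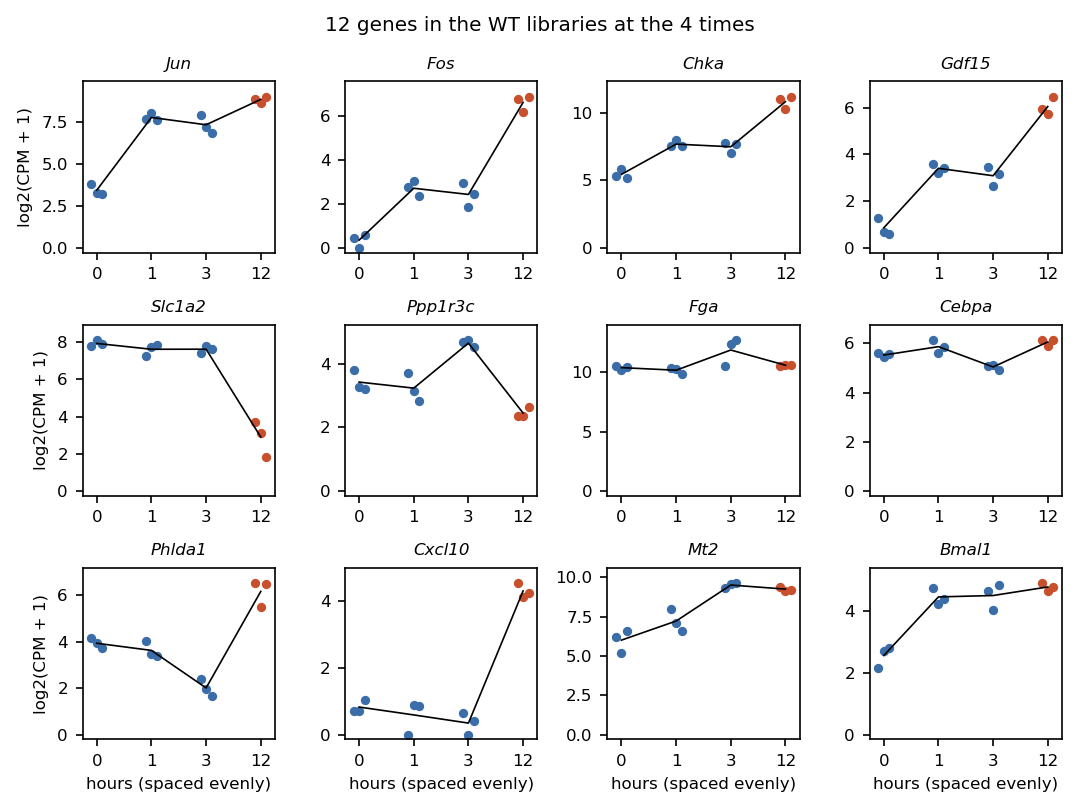
Log2(CPM + 1) of 12 genes in the 3 WT livers at 0, 1, 3 and 12 h, spaced evenly on the horizontal axis, with points per liver (12 h in orange) and a line through the means of the log values. Fos, Chka, Gdf15, Phlda1 and Cxcl10 are highest at 12 h, Slc1a2 drops between 3 h and 12 h, and Bmal1 is above its 0 h range from 1 h on.

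Whether the 12 h response differs without hepatocyte EGFR was tested gene by gene, as the response of knockout livers minus that of WT livers. By edgeR 3 genes (0.0227% of those tested) passed, and 1350 (10.2%) had an unadjusted p under 0.05; DESeq2 called 29. The linker histone gene H1f2 went in WT livers from 17.7 ± 5.27 to 26.4 ± 3.79 CPM. In knockout livers it went from 8.17 ± 0.879 to 38.001 ± 8.15 CPM (SD, n = 3; difference 1.62, SE 0.30, adjusted p = 0.0457). Ggcx, the enzyme that gamma-carboxylates clotting factors, was at 25.9, 22.3 and 22.3 CPM in the 0 h livers and 43.97, 43.1 and 46.9 CPM in the 12 h livers. There was no overlap (log2 fold change 0.92, SE 0.13, adjusted p = 2.1e-06). In knockout livers it went from 30.03 ± 1.90 to 27.7 ± 5.10 CPM (difference -1.05, SE 0.19, adjusted p = 0.0213). The last gene was Gm16146 (difference 1.49, SE 0.21, adjusted p = 0.00105). Here 0.834% of its strand-assigned counts lay on its own strand, so its reads cannot be told from those of a gene opposite. Of the stress, early and pericentral genes described above, none passed this test, which does not show that they respond alike. With 1 library left out in turn the count was 6, 3 and 1 without WT 0 h replicates 1, 2 and 3, 1, 2 and 13 without those of WT 12 h, 2, 7 and 1 without those of knockout 0 h, and 15, 1 and 9 without those of knockout 12 h. The call of H1f2 was lost without WT 0 h replicate 2 or 3, WT 12 h replicate 1 or 2, any knockout 0 h replicate or knockout 12 h replicate 2, where its adjusted p ran from 0.0599 to 0.248. That of Ggcx was lost without WT 0 h replicate 3, WT 12 h replicate 1, knockout 0 h replicate 3 or knockout 12 h replicate 2 (adjusted p = 0.0603 to 0.170), and on counts of the gene's own strand the difference was -0.15 (adjusted p = 0.837).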

How the data were processed

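Bulk liver RNA of individual mice was extracted with TRIzol and sequenced on an AVITI instrument, and the RNA is given as polyA RNA, per the labels. Mitochondrial ribosomal RNA took 41.2% to 49.2% of the counts on genes, and how RNA was selected for the libraries was not given further in the sources used here. The authors deposited read counts per gene, written by STAR against mm39 per the submitters' processing notes. The STAR version and the annotation were not given in the sources used here. The column that ignores strand was used, so reads of overlapping genes on opposite strands cannot be told apart. The 4 lines of STAR that name no gene were left out, and 17.6% to 22.1% of the reads in the 6 libraries were counted on genes.

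Counts of all 24 libraries were fitted with edgeR 4.0.16 (R 4.3.3; filterByExpr, TMM, 8 group means, robust quasi-likelihood), with Benjamini-Hochberg adjustment, and the SE of a log2 fold change was its size divided by the square root of F. Ratios of genes with 1 to 3 counts in a group carry exact 95% intervals. These pool the counts of a group and leave out the spread between mice. The labels name no batch. Alternatives were other scalings (RLE, library size), other filters, DESeq2 1.42.0, a fit to the compared groups alone, counts of the gene's own strand, a replicate block, leaving out 1 library in turn and, chosen after seeing the data, leaving out ribosomal RNA loci.

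The members and gene lists were chosen with earlier results of these data known. Genes were named by rule: per direction 12 by fold change and 10 by CPM difference, per list up to 4 called members per direction by smallest p and the uncalled member of highest mean CPM, 3 markers per cell type, and 6 per direction in the other comparisons. Actb, Atf4, Bbc3, Bhlhe40, Ccnb2, Clec4f, Cyp2a5, Cyp2c38, Foxa2, Ftl1, Gm16146, Hgf, Id1, Krt18, Krt8, Lhpp, Mcl1, Nr1h3, Per2, Pim1, Plk3, Ppp1r3c, Saa1, Srxn1, Top2a, Trp53inp1 and genes with few counts were named after their values were seen. Some genes that the rule names are not reported here. Promoter windows come from RefSeq on GRCm38.p6; that build differs from the files', so no coordinates of counted genes are given.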

Additional observations from a re-analysis of the deposited data

Results flagged for a closer look

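In 3 genes the 12 h response differed between knockout and WT livers by edgeR's quasi-likelihood interaction test with Benjamini-Hochberg adjustment. H1f2, a linker histone gene, rose by 1.62 more on the log2 scale in the knockout (SE 0.30, adjusted p = 0.0457), with a call that was lost in 8 of the 12 fits that left out 1 library. Ggcx differed by -1.05 (SE 0.19, adjusted p = 0.0213), higher at 12 h in WT livers alone by its means, and lost its call in 4 of the 12 fits. Gm16146 differed by 1.49 (SE 0.21, adjusted p = 0.00105) and kept its call in all 12, with an adjusted p of at most 0.0107; 0.834% of its strand-assigned counts lay on its own strand.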

How the results depend on the processing

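Library size as the only scaling gave 5324 genes for 12 h against 0 h in WT (939 higher, 4385 lower), 3085 for 12 h against 3 h and 1 for the genotype difference. Leaving mitochondrial ribosomal RNA out of the library size gave 3925, of which 2712 were lower. Fits without 1 library gave 2607 to 3206 genes (1426 to 1785 higher, 1168 to 1421 lower), 1155 to 1672 and 1 to 15. The genotype difference gave 79 genes with no low-count filter, 5 at 1 CPM in 3 libraries, 29 by DESeq2, 9 with only the compared groups in the fit and 0 on own-strand counts. Ggcx turned to -0.26 in WT on own-strand counts (adjusted p = 0.156). With a replicate block the counts were 3384, 1700 and 5. Same-numbered WT libraries correlated at -0.028, 0.062 and 0.063 in their deviations, so the numbers were not taken as pairs. Of 174 called genes named here, with Slc40a1, Cd163 and Marco not counted, 170 kept their call in all 6 leave-one-out fits. Of the same 174, 14 lost it with library size as the only scaling and 3 under a setting other than a library-size scaling. Of 118 counts of list members, 69 moved by over 1.5 times with library size alone, 8 with DESeq2, 15 on own-strand counts and 21 to 27 without 1 library. The cause was not tested for any of these moves. Depth limits what can be said of genes with few counts, among them the neutrophil markers, Il6, Tnf and Ccl2.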
